A study of Pan troglodytes with 6 samples.

Results

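The genes described here encode transcription factors of the SOX, FOX, PAX, LHX, POU, HOX, IRX, EN, OTX, MEIS, NEUROD, ETV, GATA, HNF, ONECUT and CEBP families, measured in chimpanzee (Pan troglodytes) cerebellum and liver. They were chosen by symbol alone. A gene entered when a row of the array carried exactly 1 gene symbol and that symbol belonged to one of these families, which gave 116 genes out of 12584 genes with a single symbol. No symbol had more than 1 row, and 1 of the 116, IRX2-DT, is a transcript divergent from IRX2 and not itself a factor. A further 17 features named a family member together with another gene and were left out of the fit results and counts given for the 116 genes.

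The study hybridised RNA to Affymetrix Human Exon 1.0 ST arrays, whose probes were designed on human exons. Each tissue had 3 arrays, from biological replicates for which the labels name no treatment or genotype. By the labels, replicate 1 of each tissue came from a 27-year-old female, replicate 2 from a 37-year-old male and replicate 3 from a 30-year-old male, with no animal named. Values are quantile-normalised intensities on a linear scale, and the number of arrays sets the precision.

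Transcription factors of these families bind DNA through a few well known folds. SOX proteins carry an HMG box, FOX proteins a forkhead domain, PAX proteins a paired domain, and the LHX, POU, HOX, IRX, EN, OTX, MEIS and ONECUT proteins a homeodomain. NEUROD factors are basic helix-loop-helix proteins, ETV factors carry an ETS domain, GATA factors zinc fingers and CEBP factors a basic leucine zipper, and HNF4G is a nuclear receptor. In the adult cerebellum such factors mark and maintain classes of neurons and glia, among them PAX6 in granule cells and LHX1 in Purkinje cells. In the liver a network of CEBP, FOXA, HNF, ONECUT and GATA factors drives the genes of hepatocytes.

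The tissue labels were checked against defining markers. All 9 measured markers of cerebellar neurons were higher in cerebellum, and their summed intensity ranged from 15232 to 16986 in cerebellum, against 292 to 456 in liver. All 6 measured hepatocyte markers were lower in cerebellum, and their sum lay between 65.2 and 146 in cerebellum, against 20958 to 24832 in liver. Over the 116 factors, Pearson's r ranged between 0.934 and 0.977 among cerebellum arrays, between 0.889 and 0.936 among liver arrays and between 0.321 and 0.454 for arrays of different tissues. These correlations run across genes of 1 array pair, share each gene's probes and describe the arrays only.

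The largest differences toward cerebellum among the 116 genes were those of the neuronal factors ETV1, LHX1, EN2 and PAX6, and the largest toward liver those of CEBPB, GATA4, CEBPA and CEBPD, which act in hepatocytes. Of 21 factors known from cerebellar or other neurons, 10 were higher and 3 lower in cerebellum, and of 11 factors of hepatocytes, 10 were lower. Both lists were drawn up with earlier results of these data known, so these counts are descriptive and no independent support. Of the 116 genes, 17 (14.7%) were higher in cerebellum and 29 (25%) were lower in cerebellum, at an adjusted p under 0.05 in a limma fit over all features. Over all 15143 features the shares were 26.7% higher and 23.9% lower, together 50.6%, against 39.7% of the factors. With a difference of at least 2-fold required as well, 13 factors were higher and 18 lower, where 17.2% and 15.8% of all features passed. The tissues did not overlap for 44.0% of the factors, against 59.4% of all features. The 3 cerebellum values lay entirely above the 3 liver values for 20 factors and entirely below them for 31, where the shares of all features were 31.0% and 28.5%. The median log2 difference, cerebellum minus liver, was -0.07 for the factors and 0.04 for all features. Differences are given throughout on the log2(intensity + 16.8) scale, which understates the change of dim genes, and they compare bulk tissue, in which fewer cells of a type and less RNA per cell cannot be told apart.

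The counts moved with the scaling of one tissue against the other. When arrays were aligned on 111 genes of ribosomes, proteasomes and the respiratory chain (called the general scaling below), every difference moved by 0.50 toward cerebellum, and the median of all features became 0.54. The factors then split into 39 higher and 17 lower, and all features into 6693 higher and 2118 lower in place of 4045 and 3617. In that setting 12 of the calls given below were lost and 22 were gained. No called factor changed sign in that or any other of the 14 settings tried.

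**Figure D1:**
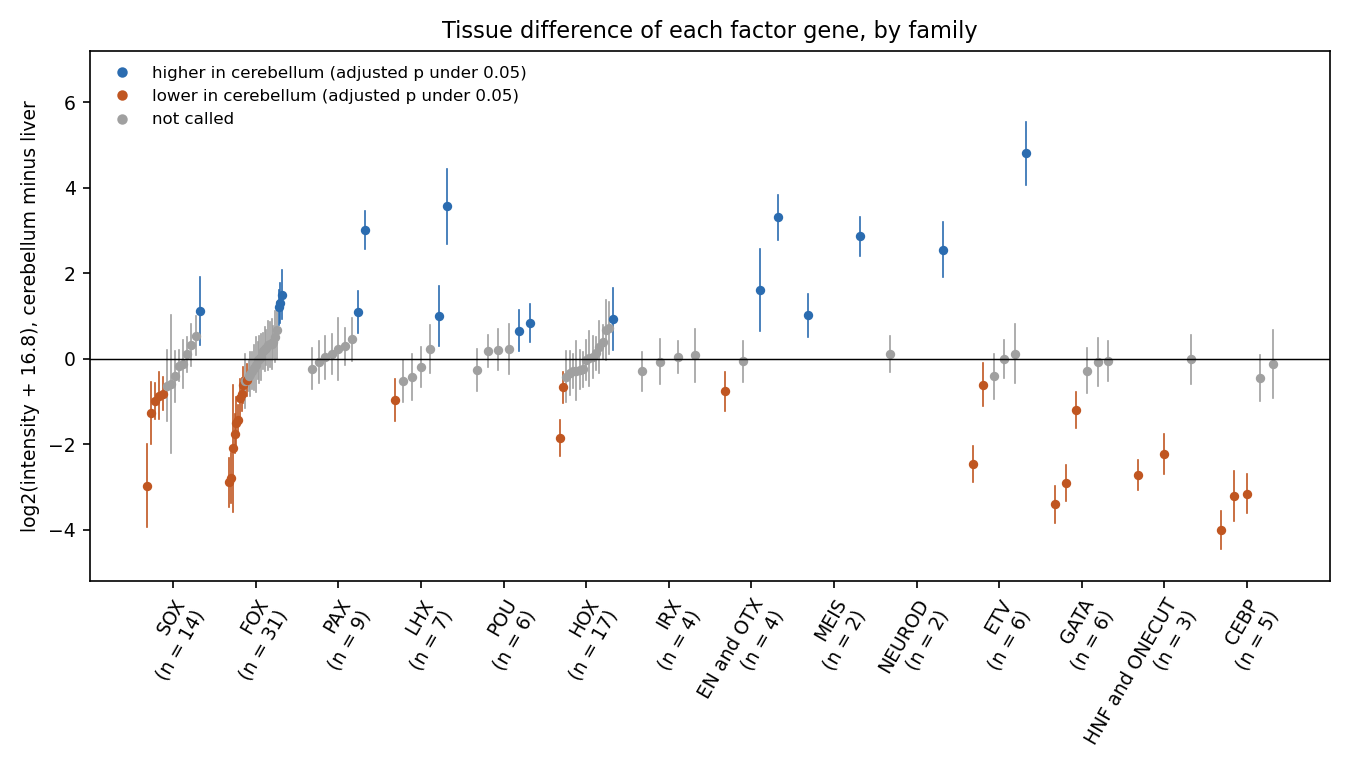
Log2 difference between cerebellum and liver for each of the 116 factor genes, grouped by family on the horizontal axis, with 95% confidence intervals from the limma fit as vertical lines (3 arrays per tissue). Blue points were higher in cerebellum, orange points were lower in cerebellum and grey points were not called; ETV1 lies highest at 4.81 and CEBPB lowest at -4.01.

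**Figure D2:**
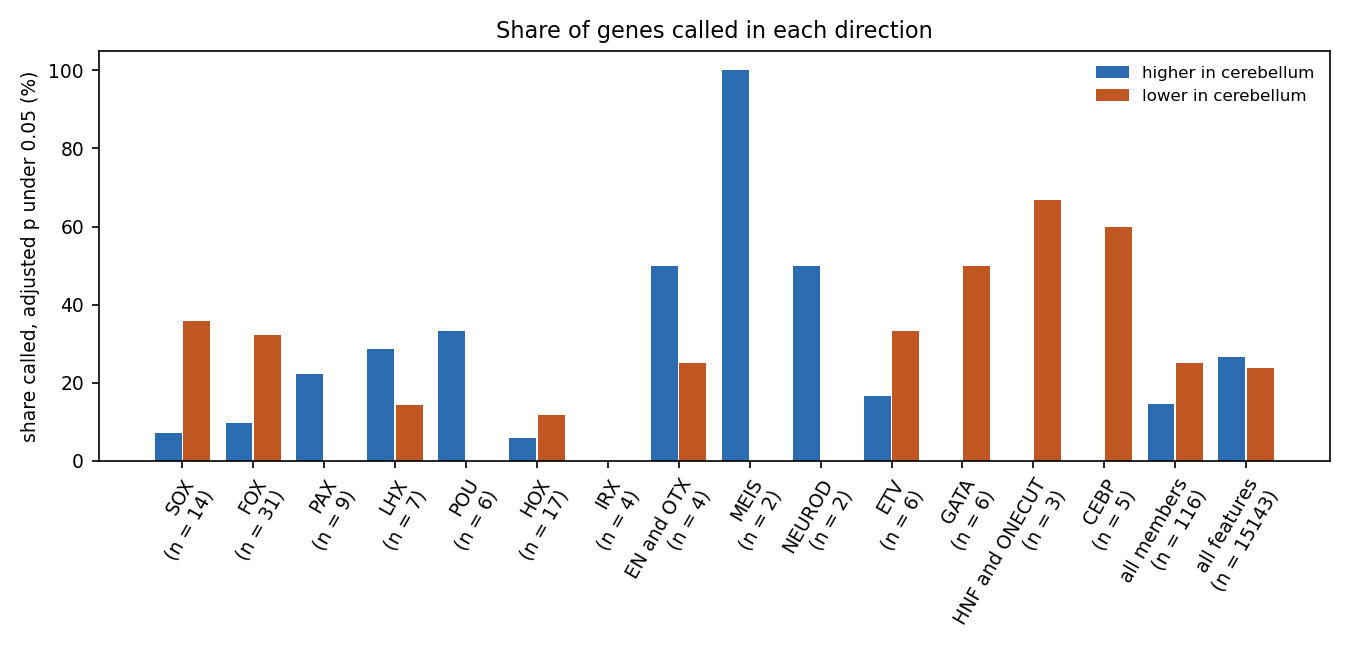
Share of genes called higher in cerebellum (blue) and lower in cerebellum (orange) in each family, in all 116 factors and in all 15143 features, at an adjusted p under 0.05. The shares of all factors were 14.7% and 25%, and those of all features 26.7% and 23.9%; small families have few genes, as their n shows.

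Factors known from the patterning of the midbrain and hindbrain divided between the tissues. EN2, an engrailed homeobox gene of the midbrain-hindbrain boundary and the developing cerebellum, measured 399, 238 and 252 in the cerebellum arrays and 11.4, 18.2 and 13.5 in the liver arrays. The tissues were far apart on every array (log2 difference 3.30, SE 0.23, adjusted p = 6.49e-06). Its paralogue EN1 showed no such gap. EN1 measured 37.4, 40.6 and 52.1 in cerebellum and 61.8, 34.5 and 43.8 in liver, overlapping values whose difference of -0.06 had a 95% interval of -0.54 to 0.41. OTX2, a homeobox gene of the anterior brain, measured 131, 27.3 and 97.8 in cerebellum and 15.8, 18.1 and 6.27 in liver. The cerebellum arrays spread widely, with replicate 2 close to the liver arrays, but the tissues did not overlap (log2 difference 1.61, SE 0.42, adjusted p = 0.0116). OTX1 went the other way at 309, 299.6 and 263 in cerebellum and 565, 584 and 391 in liver. It was lower in cerebellum on all 3 arrays (log2 difference -0.77, SE 0.20, adjusted p = 0.0123), a call lost under the general scaling (-0.27, adjusted p = 0.364) and without cerebellum replicate 3 (-0.70, adjusted p = 0.0569).

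Of the factors known from granule cells and other neurons, several were higher in cerebellum and others were not called. ETV1, an ETS factor of granule cells, had the largest difference of all 116 genes toward cerebellum, with 2409.9, 1290.2 and 2116 in cerebellum and 84.6, 32.4 and 45.4 in liver. The lowest cerebellum value was that of replicate 2 and still lay far above every liver value (log2 difference 4.81, SE 0.32, adjusted p = 5.82e-06). PAX6, the paired-box factor of granule cells and their precursors, measured 364, 443 and 443 in cerebellum and 35.04, 48.1 and 29.6 in liver. Its 3 cerebellum arrays lay close together (log2 difference 3.00, SE 0.19, adjusted p = 4.44e-06). MEIS1 and MEIS2 are homeodomain cofactors that bind DNA with PBX and HOX proteins. MEIS1 measured 805, 616 and 767 in cerebellum and 107, 69.5 and 82.4 in liver, with no overlap (log2 difference 2.86, SE 0.20, adjusted p = 7.40e-06). MEIS2 measured 178, 134 and 182 in cerebellum and 59.2, 98.8 and 63.9 in liver, and its difference was smaller (log2 difference 1.02, SE 0.22, adjusted p = 0.00468). Both MEIS genes with a row of their own were thus higher in cerebellum. A feature left out of the counts, which names MEIS3 and MEIS3P2 together, overlapped between the tissues. It measured 61.2, 56.8 and 45.6 in cerebellum and 56.9, 80.8 and 83.8 in liver. NEUROD2, a neuronal differentiation factor, measured 213, 448 and 210.3 in cerebellum and 30.1, 33.6 and 34.5 in liver. Replicate 2 stood above the other cerebellum arrays, and all 3 stood above liver (log2 difference 2.55, SE 0.28, adjusted p = 1.10e-04). The paralogue NEUROD6 measured 6.36, 16.3 and 9.21 in cerebellum and 9.096, 9.11 and 6.98 in liver, overlapping values with a difference of 0.11 and a 95% interval of -0.32 to 0.53. ETV1, PAX6 and NEUROD2 are shared with the usual markers of granule cells, of which GABRA6, a receptor subunit of these cells, measured 513, 1039.9 and 575 in cerebellum and 57.8, 32.5 and 49.5 in liver.

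LHX1, a LIM-homeodomain factor of Purkinje cells, was the second largest difference toward cerebellum. It measured 185, 544 and 221 in cerebellum and 17.6, 6.07 and 3.88 in liver, again highest in cerebellum replicate 2 (log2 difference 3.57, SE 0.38, adjusted p = 9.29e-05). The Purkinje cell protein CALB1, a calcium buffer, measured 532, 1032 and 851 in cerebellum, also highest in replicate 2, and 16.2, 12.4 and 33.6 in liver. The high value in replicate 2 was not particular to Purkinje cell genes. It was shared by GABRA6 of granule cells and the neuron markers CBLN1, FAT2 and SYT1, but not by SNAP25 or ZIC1. LHX8, known from cholinergic neurons of the forebrain, measured 59.7, 15.8 and 42.4 in cerebellum and 13.6, 7.44 and 8.24 in liver (log2 difference 1.00, SE 0.30, adjusted p = 0.0235). That call was lost when cerebellum replicate 1 or 3 or liver replicate 2 or 3 was left out, with adjusted p up to 0.0829. LHX2, which acts in the forebrain and in hepatic stellate cells, was the member lower in cerebellum, at 78.6, 116 and 73.8 in cerebellum and 232, 165 and 176 in liver. The tissues did not overlap (log2 difference -0.97, SE 0.22, adjusted p = 0.00532), and the general scaling ended the call (-0.47, adjusted p = 0.117). LHX9, LHX4, LHX6 and LHX3 were not called, with differences of -0.51, -0.43, -0.19 and 0.22.

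Of the 9 PAX genes, 2 (22.2%) were higher in cerebellum and 0 lower, with a median difference of 0.23. Over all features 26.7% were higher and 23.9% lower. Under the general scaling 4 PAX genes were higher (median 0.73), as were 44.2% of all features. Beside PAX6 the gene called in the main fit was PAX3, a factor of the dorsal neural tube and neural crest. It measured 38.2, 69.2 and 41.7 in cerebellum and 14.1, 16.1 and 11.6 in liver. All cerebellum values exceeded all liver values, although both tissues were dim (log2 difference 1.09, SE 0.21, adjusted p = 0.00268). PAX2, a factor of cerebellar interneuron precursors, and PAX5, a factor of the midbrain-hindbrain boundary and of B cells, had differences of 0.11 (95% interval -0.35 to 0.57) and 0.03 (-0.48 to 0.54). The other 5, PAX1, PAX4, PAX7, PAX8 and PAX9, lay between -0.24 and 0.45 and were not called. Among 6 POU genes, 2 (33.3%, against 26.7% of all features) passed toward cerebellum, neither by 2-fold. POU2F3, known from chemosensory tuft cells, measured 48.5, 28.01 and 42.7 in cerebellum and 15.9, 13.4 and 14.7 in liver (log2 difference 0.83, SE 0.19, adjusted p = 0.00648). POU3F2, a factor of neural precursors and neurons, measured 56.98, 100.2 and 71.2 in cerebellum and 44.9, 42.2 and 36.7 in liver. Its 3 cerebellum values lay above the liver values (log2 difference 0.66, SE 0.21, adjusted p = 0.0277), and the call was lost when cerebellum replicate 2 or 3 or liver replicate 2 or 3 was left out, with adjusted p up to 0.0728. POU1F1 of the pituitary, POU4F2 of sensory neurons, POU2F2 of B cells and POU5F2 differed by 0.22, 0.21, 0.18 and -0.27 and were not called.

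**Figure D3:**
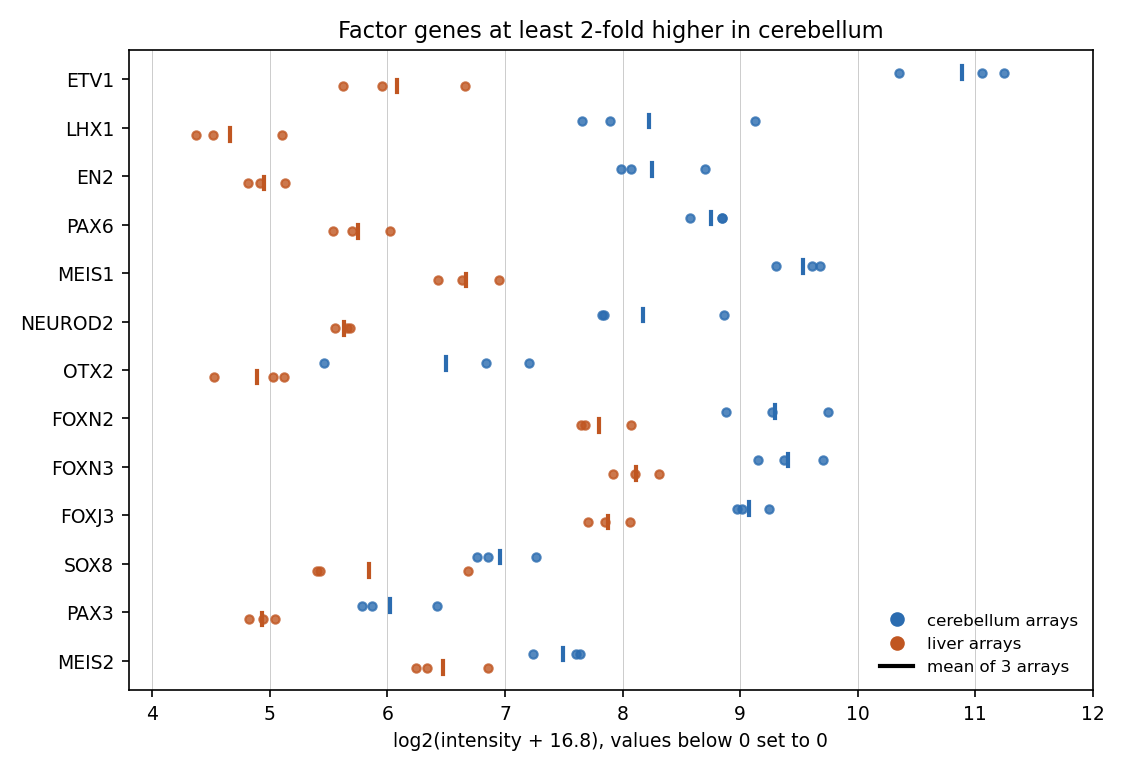
Values of the 13 factor genes called at least 2-fold higher in cerebellum, on the log2(intensity + 16.8) scale; each point is 1 array, blue for cerebellum and orange for liver, and the bars mark the mean of 3 arrays. The tissues do not overlap for any of the 13, and OTX2 in cerebellum replicate 2 (27.3) and SOX8 in liver replicate 3 (86.3) come closest to the other tissue.

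The SOX genes are ordered here by subgroup. Of 14 measured, 1 (7.14%) was higher and 5 (35.7%) were lower in cerebellum, with a median of -0.51. Over all features 26.7% were higher and 23.9% lower. Under the general scaling 4 SOX genes were higher and 1 lower, against 44.2% and 14% of all features. SOX8, SOX9 and SOX10 form the group known from glia and their precursors. SOX8 measured 91.6, 137 and 98.9 in cerebellum and 26.3, 25.5 and 86.3 in liver, where replicate 3 alone approached the cerebellum values (log2 difference 1.12, SE 0.35, adjusted p = 0.0259). Its log2 difference was 1.54 without liver replicate 3 (adjusted p = 6.04e-04), and the call was lost when cerebellum replicate 2 or 3 or liver replicate 1 or 2 was left out, with adjusted p up to 0.0972. SOX9, a factor of astrocytes, Bergmann glia and bile duct cells, measured 476, 642 and 563 in cerebellum and 467, 335 and 344 in liver. The tissues did not overlap by a narrow margin and the test was just missed (log2 difference 0.54, SE 0.20, adjusted p = 0.0529), while without liver replicate 1 the difference of 0.69 passed (adjusted p = 0.0233). SOX10, the factor of oligodendrocytes, measured 54.5, 57.4 and 56.3 in cerebellum and 39.3, 60.9 and 54.7 in liver. These values overlap, with a 95% interval of -0.31 to 0.52 for the difference. On the same arrays MBP, a main protein of the myelin that oligodendrocytes make, measured 4297, 966 and 1481 in cerebellum and 19.98, 20.1 and 11.6 in liver. Under the general scaling SOX9 and SOX10 both passed toward cerebellum, by 1.04 and 0.60 (adjusted p = 0.00428 and 0.0260).

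SOX5, of the group that also holds SOX6 and SOX13, had the largest SOX difference and was far lower in cerebellum. It measured 46.9, 70.9 and 47.6 in cerebellum and 829, 770.5 and 244 in liver, so that liver replicate 3 was well below the other livers and still above every cerebellum value (log2 difference -2.97, SE 0.42, adjusted p = 4.77e-04). Without liver replicate 3 the log2 difference was -3.52 (adjusted p = 9.02e-06). SOX6 and SOX13, by contrast, were not called, at -0.42 (95% interval -1.02 to 0.18) and -0.16 (-0.53 to 0.21). SOX21 and SOX1, which act in neural precursors, were lower in cerebellum. SOX21 measured 91.2, 108 and 36.3 in cerebellum and 217, 223 and 165 in liver, with no overlap (log2 difference -1.27, SE 0.32, adjusted p = 0.00967). SOX1 measured 36.3, 56.4 and 38.7 in cerebellum and 115, 108 and 62.6 in liver (log2 difference -0.87, SE 0.24, adjusted p = 0.0167). Both calls were lost under the general scaling (adjusted p = 0.0597 and 0.247), and that of SOX1 also when cerebellum replicate 1 or 3 or liver replicate 1 or 2 was left out. SOX3, of the same group as SOX1, differed by -0.12 and was not called. A feature left out of the counts, which names SOX2-OT and SOX2 together, was higher in cerebellum without overlap. It measured 157, 215 and 125 in cerebellum and 13.4, 18.8 and 13.4 in liver.

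SOX17, a factor of endoderm and of endothelial cells, measured 108, 149 and 114 in cerebellum and 264, 288 and 233 in liver. It was lower in cerebellum on every array (log2 difference -0.99, SE 0.18, adjusted p = 0.00212), and under the general scaling the call was just missed (-0.49, adjusted p = 0.0598). Of 7 endothelial markers measured, 6 were likewise lower in cerebellum, their summed intensity was 115 to 308 in cerebellum and 1526 to 1938 in liver, and their part in the SOX17 result was not tested. SOX30, known from male germ cells, was lower in cerebellum at 13.98, 19.8 and 19.03 in cerebellum and 46.02, 48.5 and 37.4 in liver (log2 difference -0.82, SE 0.17, adjusted p = 0.0039), a call also lost under that scaling (adjusted p = 0.203). SOX4, SOX11 and SOX12, factors of immature neurons and other growing cells, were not called, at -0.60, -0.63 and 0.32. SOX4 measured 54.7, 54.7 and 45.1 in cerebellum and 40.2, 30.5 and 389 in liver. A single array, liver replicate 3, was high, and without it the difference became 0.39 (adjusted p = 0.113). On that array the markers of smooth muscle, stellate cells and fibroblasts lay 1.66 above the other livers (median of 7 genes, log2), those of macrophages 0.80 (7 genes), of bile duct 0.80 (5 genes), of endothelium 0.52 (7 genes) and of lymphocytes and plasma cells 0.45 (8 genes). KRT7, a bile duct keratin, measured -7.75, -2.04 and 127 in the 3 livers. The part of these cells in the SOX4 value was not tested.

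The FOX family was the largest, with 31 genes, of which 3 (9.68%) were higher and 10 (32.3%) lower in cerebellum (median -0.14). Over all features 26.7% were higher and 23.9% lower. Under the general scaling 12 FOX genes were higher and 6 lower, against 44.2% and 14% of all features. The 3 higher ones belong to the FOXN and FOXJ groups. FOXN2 measured 841, 455 and 599.6 in cerebellum and 189, 183 and 253 in liver (log2 difference 1.50, SE 0.25, adjusted p = 0.00115). FOXN3, a repressor linked to cell cycle checkpoints, measured 646, 552 and 819 in cerebellum and 259, 301 and 225 in liver (log2 difference 1.30, SE 0.20, adjusted p = 8.32e-04). FOXJ3 measured 500.02, 592 and 486 in cerebellum and 251, 192 and 214 in liver (log2 difference 1.20, SE 0.18, adjusted p = 5.97e-04). For all 3 the tissues did not overlap, and their means differed by 2.31- to 2.82-fold on this scale. Other members of these groups were not called. FOXJ1, the factor of motile cilia, differed by 0.66, FOXN4, a factor of retinal and spinal interneuron precursors, by 0.51, FOXJ2 by 0.25 and FOXN1, a factor of the thymic epithelium, by -0.53.

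The FOXA genes encode pioneer factors that open hepatocyte enhancers, and all 3 were lower in cerebellum. FOXA3 measured 19.3, 5.82 and 19.6 in cerebellum and 265, 220.1 and 165 in liver (log2 difference -2.89, SE 0.25, adjusted p = 2.69e-05). FOXA2 measured -4.02, 10.002 and 0.858 in cerebellum, where 1 value was below 0, and 109, 168 and 97.01 in liver (log2 difference -2.79, SE 0.26, adjusted p = 3.75e-05). FOXA1 measured 17.8, 30.4 and 20.2 in cerebellum and 134, 121 and 94.4 in liver (log2 difference -1.75, SE 0.20, adjusted p = 1.30e-04). The tissues were well apart for each of the 3 genes. FOXQ1 measured 10.02, 14.9 and 9.67 in cerebellum and 75.3, 382 and 31.5 in liver. Its liver values spread widely, with replicate 2 far above the others (log2 difference -2.10, SE 0.64, adjusted p = 0.0247). Without liver replicate 2 the log2 difference was -1.24 and without liver replicate 3 it was -2.76 (adjusted p = 0.0137 and 0.00384), and the call was lost without any 1 of the 3 cerebellum arrays (adjusted p 0.0575 to 0.0686).

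Some FOX factors that respond to insulin or act in many tissues were also lower in cerebellum. FOXO1, which activates gluconeogenic genes when insulin is low, measured 80.4, 116 and 49.9 in cerebellum and 227, 277 and 253 in liver, without overlap (log2 difference -1.50, SE 0.26, adjusted p = 0.00137). Its relative FOXO4 differed by -0.01 with a 95% interval of -0.56 to 0.54. FOXP1, a repressor of blood cells and neurons, measured 100.02, 97.5 and 99.2 in cerebellum and 309, 296 and 279.6 in liver, with little spread in either tissue (log2 difference -1.43, SE 0.15, adjusted p = 9.45e-05). FOXP4 measured 53.1, 57.5 and 65.8 in cerebellum and 88.5, 87.9 and 93.9 in liver (log2 difference -0.50, SE 0.16, adjusted p = 0.0286). The FOXP4 call was lost in 7 of 14 alternatives, among them the general scaling, in which the difference was -0.0033, and each array left out except liver replicate 1. FOXP2, which Purkinje cells express in the mouse, measured 24.2, 21.96 and 27.5 in cerebellum and 44.97, 27.04 and 30.05 in liver. It was dim in both tissues and not called (-0.28, 95% interval -0.71 to 0.15), and FOXP3, the factor of regulatory T cells, was not called either (-0.36).

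The remaining called FOX genes were FOXL2, an ovarian factor, FOXI2 and FOXS1, all lower in cerebellum by less than 2-fold. Their differences were -0.91, -0.84 and -0.62 (adjusted p = 0.0041, 0.00338 and 0.0206), and all 3 calls were lost under the general scaling. FOXS1 also fell short without cerebellum replicate 1 or 3. FOXE1, a thyroid factor, measured -7.095, -2.57 and -4.48 in cerebellum, all below 0, and 5.16, 5.802 and 5.06 in liver, and was not called. FOXF1, a factor of mesenchyme including hepatic stellate cells, FOXM1, a factor of dividing cells, and FOXC2, a factor of lymphatic vessels, were not called, at 0.33 (95% interval -0.20 to 0.87), -0.04 (-0.48 to 0.39) and -0.21 (-0.73 to 0.32). The last 7, FOXD1, FOXD3, FOXI1, FOXK2, FOXL1, FOXR1 and FOXR2, lay between -0.14 and 0.39 and were not called.

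The factors of the hepatocyte network outside the FOX family were lower in cerebellum with 1 exception, ONECUT1. CEBPB, a bZIP activator of acute-phase genes, had the largest difference of the 116 genes toward liver, with 26.6, 43.1 and 24.7 in cerebellum and 724, 723 and 798 in liver. The liver arrays agreed closely (log2 difference -4.01, SE 0.19, adjusted p = 9.56e-07). CEBPA, which maintains hepatocyte metabolism, measured 28.9, 30.7 and 22.3 in cerebellum and 258, 469 and 484 in liver (log2 difference -3.21, SE 0.25, adjusted p = 1.47e-05). CEBPD, another acute-phase activator, measured 43.3, 46.2 and 46.6 in cerebellum and 415, 622 and 605 in liver (log2 difference -3.16, SE 0.20, adjusted p = 4.04e-06). For CEBPA and CEBPD liver replicate 1 was the lowest liver and still several-fold above every cerebellum array. CEBPG, a widely expressed dimerisation partner, differed by -0.46 and CEBPE, a factor of granulocytes, by -0.13, with 95% intervals of -0.99 to 0.08 and -0.93 to 0.67, and neither was called.

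HNF4G, a nuclear receptor related to HNF4A, measured 11.7, 11.2 and 9.66 in cerebellum and 178, 158 and 161 in liver, and its values were tight in both tissues (log2 difference -2.73, SE 0.16, adjusted p = 2.54e-06). ONECUT2 measured 54.4, 37.6 and 30.3 in cerebellum and 248, 227 and 277 in liver (log2 difference -2.23, SE 0.20, adjusted p = 3.22e-05). ONECUT1, also named HNF6 and known from hepatocytes and bile ducts, did not follow its paralogue. It measured 452, 288 and 394 in cerebellum and 435, 447 and 275 in liver, overlapping throughout, with a difference of -0.02 and a 95% interval of -0.59 to 0.55. That interval excludes a difference of the size seen for ONECUT2.

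Of 6 GATA genes 3 were lower in cerebellum and 0 were higher, where 23.9% of all features were lower and 26.7% higher. GATA4, a factor of endoderm, heart and liver sinusoidal endothelium, measured -4.203, -5.06 and -2.04 in cerebellum, all below 0, and 129.7, 201 and 159 in liver (log2 difference -3.41, SE 0.19, adjusted p = 2.14e-06). Its fold depends on the pseudocount, since the cerebellum values lie at the floor. GATA6, which acts beside GATA4 in endoderm, measured 11.4, 16.04 and 17.8 in cerebellum and 232, 185 and 254 in liver (log2 difference -2.91, SE 0.19, adjusted p = 4.44e-06). GATA3, a factor of T cells, measured 11.1, 11.2 and 12.01 in cerebellum and 45.2, 38.97 and 61.6 in liver, dim but without overlap (log2 difference -1.20, SE 0.18, adjusted p = 6.98e-04). Of 8 lymphocyte and plasma cell markers 5 were lower in cerebellum, their summed intensity was 319 to 427 in cerebellum, against 1134 to 1392 in liver, and their part in the GATA3 value was not tested. JCHAIN, a plasma cell gene, made up much of that sum, at 3.08, 2.99 and 7.13 in cerebellum and 734, 624 and 730.2 in liver. The T cell markers differed among themselves. CD3D overlapped between tissues and was not called, at -0.13. CD3E, CD2 and CD8A were lower in cerebellum without overlap, at -1.02, -1.46 and -0.51 (adjusted p = 0.00265, 0.00121 and 0.0463). GATA1 and GATA2, factors of blood cell formation, and GATA5 were not called, at -0.28, -0.06 and -0.08.

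Among ETV genes ETV6, an ETS repressor needed in blood formation, was lower in cerebellum at 28.2, 31.5 and 20.9 in cerebellum and 201, 207 and 259.7 in liver, the reverse of ETV1 (log2 difference -2.46, SE 0.18, adjusted p = 1.09e-05). ETV3L was lower by -0.61 with an adjusted p of 0.049, a call lost in 8 of 14 alternatives, among them the general scaling and 5 of the 6 that leave out an array. A feature left out of the counts, which names ETV3 and ETV3L together, leaned the other way with overlap. It measured 97.2, 97.0 and 109 in cerebellum and 56.1, 76.6 and 102 in liver. ETV5 and ETV4, the relatives of ETV1, differed by 0.11 and -0.02 with 95% intervals of -0.58 to 0.81 and -0.46 to 0.43, and ETV7 by -0.42, none of them called.

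**Figure D4:**
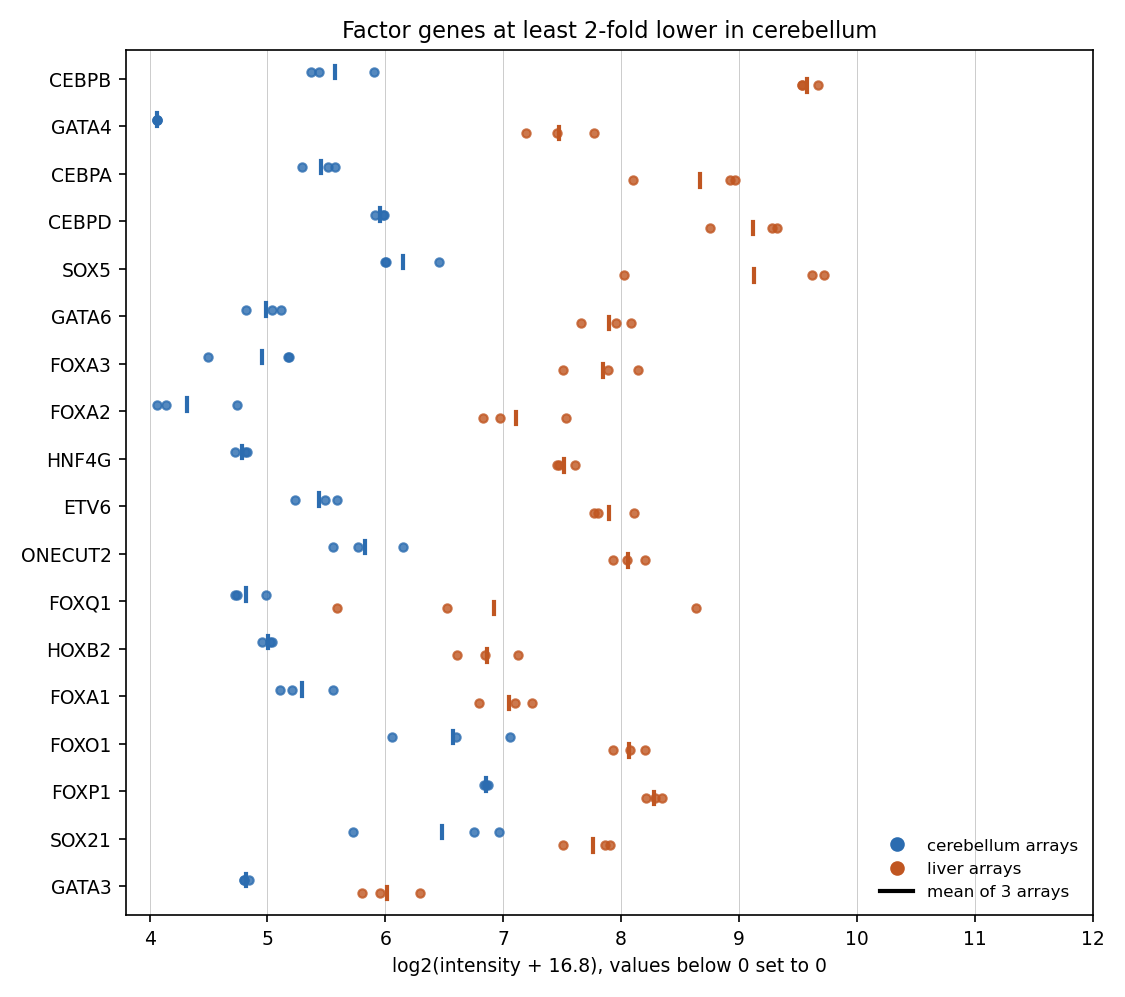
Values of the 18 factor genes called at least 2-fold lower in cerebellum, on the log2(intensity + 16.8) scale with values below 0 set to 0; each point is 1 array, blue for cerebellum and orange for liver, and the bars mark the mean of 3 arrays. No gene overlaps between tissues, and the widest spread is that of FOXQ1 in liver, from 31.5 to 382.

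HOX genes specify position along the body axis in the embryo, and the part of the hindbrain that forms the cerebellum expresses none of them in the mouse. Here they were mostly dim and mostly not called. Of 17 measured, 1 (5.88%) was higher and 2 (11.8%) were lower in cerebellum, against 26.7% and 23.9% of all features. For 12 of the 17 the mean intensity over the 6 arrays was under 53.4, the 25th percentile of all features. The smallest adjusted p was that of HOXB2, a hindbrain factor that blood-forming cells also express, at 14.2, 16.1 and 15.7 in cerebellum and 81.002, 98.5 and 123 in liver. The tissues were apart by a wide margin (log2 difference -1.86, SE 0.18, adjusted p = 5.65e-05). HOXC12 measured 177, 163 and 183 in cerebellum and 284, 305 and 276 in liver (log2 difference -0.67, SE 0.16, adjusted p = 0.00696), and its call was lost under the general scaling (adjusted p = 0.497). HOXC8 was higher in cerebellum by 0.93 with overlapping values of 45.3, 28.7 and 54.8 in cerebellum and 30.6, 13.8 and 3.58 in liver (adjusted p = 0.0383). The HOXC8 call was lost when cerebellum replicate 1 or 3 or liver replicate 2 or 3 was left out, with adjusted p up to 0.131. The other 14 lay between -0.42 (HOXD13) and 0.72 (HOXD3). HOXD3 measured 197, 111 and 230.1 in cerebellum and 109, 108 and 79.004 in liver and just missed the test (adjusted p = 0.0511). Without cerebellum replicate 2 the HOXD3 difference was 1.00 and passed (adjusted p = 0.0067). A feature left out of the counts, which names HOXD4, MIR10B and HOXD3 together, went the other way. It measured 39.1, 44.8 and 53.6 in cerebellum and 72.8, 88.4 and 62.2 in liver. By position, 1 of 5 genes of the anterior groups 1 to 5 was called and 2 of 12 of groups 6 to 13. Under the general scaling 6 HOX genes were higher and 1 lower, against 44.2% and 14% of all features.

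No IRX gene was called, a count of 0 of 4 in the limma fit, against 50.6% of all features. In that fit 0 also had an unadjusted p under 0.05. The row with the smallest adjusted p was IRX2-DT, at 93.02, 64.7 and 106 in cerebellum and 108, 121 and 102 in liver (-0.30, adjusted p = 0.252). IRX2, IRX5 and IRX6, homeodomain factors of heart, limb and neural patterning, differed by -0.07, 0.04 and 0.08, with 95% intervals of -0.60 to 0.46, -0.33 to 0.40 and -0.55 to 0.70. Under the general scaling IRX5 was called higher in cerebellum.

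The factors were also counted by the cells they are known from, in lists drawn up with earlier results of these data known. Of 11 measured factors of hepatocytes 10 were lower in cerebellum and 0 higher, the exception being ONECUT1. Their median difference was -2.89, against 0.04 over all features, and the counts were the same under the general scaling and without liver replicate 3. The list includes CEBPA, CEBPB and CEBPD, which also act in myeloid cells, and GATA4, which also acts in liver sinusoidal endothelium. All 7 macrophage and microglia markers were lower in cerebellum, their summed intensity was 214 to 436 in cerebellum, against 4048 to 7085 in liver, and their part in these results was not tested. The 21 neuronal factors had a median of 0.12, and the 3 lower ones were OTX1, FOXP1 and FOXP4. Under the general scaling 11 of the 21 were higher and 1 lower. Of 7 glial factors 2 (28.6%) were higher, SOX8 and POU3F2, and 2 (28.6%) lower, SOX1 and SOX21, with a median of 0.10. These shares were near those of all features. SOX2, named only in a feature with SOX2-OT, was not counted. Under the general scaling 4 of the 7 were higher and 0 lower (median 0.60), and without liver replicate 3, 1 was higher and 2 lower. Of 13 factors of endothelial, stellate and blood cells 4 (30.8%) were lower, SOX17, GATA3, LHX2 and ETV6, and 0 higher, with a median of -0.21. Under the general scaling 2 of the 13 were lower and 2 higher.

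Factors of other families with known roles in these tissues, and partner proteins of the families above, were counted in the same fit. In it 26.7% of all features were higher and 23.9% lower. Of 13 other hepatic transcription factors 11 were lower in cerebellum and 0 higher (median -2.43). HHEX, a homeobox gene of liver development, measured 10.7, 17.6 and 9.28 in cerebellum and 525, 618 and 511 in liver, NR5A2, a nuclear receptor of bile acid synthesis, differed by -4.18, and ATF5, a bZIP factor, by -3.39. Of 33 other cerebellar and neural factors 19 were higher and 2 lower (median 0.91). The zinc finger genes of granule cells led, with ZIC1, ZIC2 and ZIC5 at 5.77, 5.35 and 4.89. The 2 lower ones, TFAP2A and PTF1A, a factor of GABAergic precursors, differed by -0.78 and -0.58. The TFAP2A call was lost without cerebellum replicate 3 (adjusted p = 0.0574) and the PTF1A call without cerebellum replicate 2 or 3 or liver replicate 2 (adjusted p up to 0.0688), and under the general scaling 25 were higher and 0 lower.

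Of the 23 measured partners 9 were higher and 8 lower in cerebellum (median 0.04), against 11 and 4 under the general scaling (median 0.54). LMO3, a LIM-only protein that binds the same LDB adaptors as LHX factors, measured 506, 769 and 511 in cerebellum and 14.4, 13.4 and 9.07 in liver (log2 difference 4.38, SE 0.21, adjusted p = 9.48e-07). ZFPM2, a cofactor of GATA factors, measured 1383, 1078 and 1084 in cerebellum and 60.4, 56.01 and 73.4 in liver, the opposite direction to GATA4 and GATA6 (log2 difference 3.90, SE 0.18, adjusted p = 8.70e-07). SSBP2, which stabilises LDB complexes, was higher by 3.16. Among the lower ones were ID3 and ID1, inhibitors of helix-loop-helix factors, at -3.26 and -2.67, and LDB2, an adaptor of LIM-homeodomain proteins, at -2.68. The adaptor LDB1 was higher, at 0.70 (adjusted p = 0.0319).

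Replicates of a tissue mostly agreed. Against the mean of the other 2 arrays of the tissue, 6 of the 116 factors (5.17%) lay at least 1 log2 unit away in liver replicate 3, as did 6.12% of all features, and 1 to 4 factors did in each other array. In cerebellum replicate 2 these were LHX1 and NEUROD2 above the others, by 1.36 and 1.02, and OTX2 and LHX8 below them, by -1.56 and -1.05. In liver replicate 3 SOX4 and SOX8 lay above the other livers, by 2.97 and 1.27, and FOXQ1, SOX5, HOXB1 and PAX1 below them, by -1.99, -1.64, -1.02 and -1.02. The fit without liver replicate 3 gave 15 factors higher and 33 lower in cerebellum. In that fit LHX9, LHX4, FOXN1, HOXD13 and HOXB1 passed as lower, at -0.71, -0.63, -0.79, -0.71 and -0.62, and POU1F1 as higher, at 0.50. Without liver replicate 1 SOX11 passed as lower at -1.07, and HOXD11 and HOXC11 as higher at 0.99 and 0.57. Without cerebellum replicate 2 FOXJ1 and FOXN4 passed as higher, at 0.98 and 0.73.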

How the data were processed

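The members and gene lists were chosen with earlier results of these data known. The authors deposited linear-scale intensities. The submitters' processing notes name GCOS, while background correction, probe selection and probe summary are not stated there. In the files 93 values per array lay below 0, and the 6 arrays held the same sorted values, with 0 positions that differed, so quantile normalisation had been applied and total signal cannot be compared. Symbols came from the platform annotation (12685 of 15143 features with 1 symbol, 1780 with several, 678 with none), and all 116 member symbols matched the RefSeq chimpanzee gene table.

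Values below 0 were set to 0 and log2(intensity + 16.8) was taken, the pseudocount being the 10th percentile of all values. All 15143 features were fitted with limma 3.58.1 in R 4.3.3 (lmFit, eBayes, two-sided, no block, no filter), with Benjamini-Hochberg adjustment over all features and a threshold of 0.05. The p-values cover the spread between 3 arrays per tissue, and a permutation of 3 against 3 cannot go below a two-sided p of 0.1. The fit was tested on simulated data. A filter was used only as an alternative: 76 of the 116 members had a mean intensity of at least 53.4, the 25th percentile of features. By rule, the values of all 6 arrays are given for the up to 3 largest called differences of at least 2-fold, without overlap, per family and direction, or for the smallest adjusted p where a family had none. Values given for other genes were chosen after they were seen. For other factors and partners the rule was the 3 largest called differences in each direction, and LDB1 is named outside it. Alternatives were a replicate block, other pseudocounts, a filter on dim features, alignment on general genes, renewed quantile normalisation, a variance trend, another row rule and leaving out each array.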

Additional observations from a re-analysis of the deposited data

How the results depend on the processing

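Of the 46 factors called, 29 kept their call in every one of the 14 settings that measured them, 13 of those higher and 16 lower in cerebellum. The other 17 lost it in at least 1 setting. OTX2, PAX3, POU2F3 and GATA3, counted among those kept, were dim and absent from the setting without dim features. Aligning arrays on the general genes moved the counts to 39 higher and 17 lower and the median difference of the factors to 0.43, from a base of 17, 29 and -0.07. That setting adds 0.50 to every difference by construction, and which scaling is nearer to the tissues' true totals was not tested. Leaving out 1 array gave 13 to 19 factors higher and 23 to 33 lower, with a median difference of -0.17 to -0.02. At pseudocounts of 10.2 and 30.3 the counts were 17 and 29, and 18 and 29. Without dim features 14 of 76 were higher and 25 lower. Quantile normalisation applied again and the other row rule changed 0 calls, an outcome fixed in advance that says nothing about stability. The arrays already held the same sorted values, and no member symbol had more than 1 row. The variance trend gained 2 calls. Same-numbered arrays of the tissues share the labelled sex and age. The replicate block on that number gave 17 higher and 27 lower, losing the calls of ETV3L and FOXP4. The deviations of same-numbered arrays from their tissue means correlated with r = 0.11, 0.16 and -0.14. Of 6 arrays, 3 correlated best with their own number. With 3 arrays per tissue these correlations cannot decide whether same-numbered arrays came from the same animal. The labels name no animal, and the main fit used no block. Dim genes limit what can be seen: 40 of the 116 factors (34.5%, against 25% of all features) had a mean intensity under 53.4.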
